A study of Sus scrofa with 8 samples.

Results

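Chromatin at 10 genes of the TGF-beta pathway was examined in pig embryonic fibroblasts (PEFs). The genes were the ligands TGFB1, TGFB2 and TGFB3, the receptors TGFBR1, TGFBR2 and TGFBR3, and the intracellular mediators SMAD2, SMAD3, SMAD4 and SMAD7. They were taken by name from the RefSeq annotation of the pig genome Sscrofa11.1, and all 10 were found among 19487 protein-coding genes on chromosomes 1 to 18 and X. Genes and regions below are given in this build with positions counted from 1, and 5 of the 10 genes (TGFBR1, SMAD2, SMAD3, SMAD4 and SMAD7) lie on chromosome 1.

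The cells were fibroblasts grown from 35-day fetuses of Large White pigs, cultured for 24 h in DMEM with 15% fetal bovine serum and otherwise untreated. ChIP-seq was done for H3K4me3, a histone mark of promoters, for H3K27ac, a mark of active promoters and enhancers, and for CTCF, a DNA-binding protein found at loop anchors and domain borders. Each had 2 replicates, which gave 6 peak lists, and no other condition was compared. The labels do not say whether replicates came from separate fetuses or cultures, so the spread between them may be technical. Both input samples were not analysed here.

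In this pathway a TGF-beta dimer, kept latent in the matrix until it is released, brings together a type II receptor (TGFBR2) and a type I receptor (TGFBR1). TGFBR3, or betaglycan, is a coreceptor that presents ligand, above all TGFB2. The type I receptor phosphorylates SMAD2 and SMAD3, which join SMAD4 and move to the nucleus, where they regulate genes together with other factors such as AP-1. SMAD7 is an inhibitory SMAD, itself induced by the pathway, that acts on the receptor. In fibroblasts the pathway is known for driving collagen and other matrix genes.

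Peaks of both replicates that overlapped by at least 1 bp were joined into a region, and a gene start was called marked when a region came within 1 kb of it. Fold enrichment below is the MACS2 value at a peak summit, a ratio over the control, and the highest is given where a region held several peaks. A value at a start is that of a region that came within 1 kb of it, and its summit can lie farther off. The H3K4me3 summit lay 2992 bp from the gene start at TGFB3, 2983 bp at SMAD7 and 1051 bp at TGFB2. For wide regions, such as H3K27ac at TGFBR2 (20.6 kb) and SMAD7 (36.0 kb), the value is the highest over the whole region. There were 37932 and 43516 H3K4me3 peaks, 74983 and 81164 H3K27ac peaks, and 40289 and 44682 CTCF peaks in replicates 1 and 2. The median H3K4me3 fold enrichment was 9.19 in replicate 1 and 6.15 in replicate 2, a larger gap than for H3K27ac (4.84 and 4.75) or CTCF (19.7 and 19.2). The fold enrichment of H3K4me3 is therefore read against other genes of the same replicate. The reads behind a single peak are not known, so no counting interval was computed. In bulk libraries a mark in fewer cells and a weaker mark in each cell cannot be told apart.

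The fibroblast label was checked against markers. All 10 fibroblast markers, among them VIM, PDGFRA and COL1A1, bore H3K4me3 and H3K27ac at the gene start. None of 6 epithelial markers bore H3K27ac there, although all 6 bore H3K4me3. Both marks were found at 1 of 5 endothelial markers (ERG), 1 of 5 blood cell markers (CD68), 0 of 3 muscle markers, 1 of 4 neural markers (PAX6) and 1 of 3 liver markers (APOA1). Neither mark was found at 3 endothelial (PECAM1, CDH5 and TEK), 2 blood cell (PTPRC and CSF1R), 1 neural (SOX10) and 2 liver markers (ALB and AFP). The rest of these markers bore a single mark. It was H3K4me3 at CLDN5, LCP1, MYOD1, MYF5, SOX2 and NEUROD1, and H3K27ac at SPI1 and MYOG.

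H3K4me3 was found at the gene start of 9 of the 10 TGF-beta pathway genes, against 69.2% of all protein-coding genes. H3K27ac was found at 9 of 10 (61.1% of all), and the same 9 genes bore both marks (59.2% of all). The exception was SMAD4, whose annotated gene start bore neither mark. When every annotated transcript start was allowed, all 10 genes bore H3K4me3, against 72.3% of all genes. CTCF was at the gene start of TGFB1 and TGFBR3, 2 of 10, against 18.6% of all. With 10 genes chosen by name, these shares are descriptions of the 10 and were not tested.

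The annotated gene start was not always the strongly marked one. SMAD4, the common partner of SMAD2 and SMAD3, lies at chr1:100521843-100633501 on the plus strand. Its gene start is that of a single predicted transcript, XM_013985326.2, and the nearest H3K4me3 region there was 5781 bp away, at the neighbouring gene ELAC1. The other 4 of its 5 transcripts, NM_214072.1 included, start at 52.3 kb inside the gene. At that start H3K4me3 reached 48.9 and 43.7 in replicates 1 and 2 over 5.06 kb, and H3K27ac reached 25.3 and 27.4 over 4.85 kb. The region is shared with LOC102159046, a protein-coding gene that starts 52.7 kb into SMAD4 on the opposite strand.

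TGFBR1, the type I receptor, lies at chr1:240842735-240918267 on the plus strand and showed the same order of starts with a weak mark at the outer one. H3K4me3 at its gene start (XM_021080713.1) was 7.21 and 5.91 over 0.729 kb, at percentiles 2.51 and 3.28 of coding genes with a region. At the later start, 17.4 kb inside the gene and used by NM_001038639.1, H3K4me3 was 51.6 and 25.3 over 5.62 kb. H3K27ac was 9.68 and 8.40 at the gene start and 18.1 and 18.7 at the later start. In each replicate the later start was thus higher for both marks.

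The sequences of these starts also differed in CpG dinucleotides, the feature of CpG island promoters. The 4 windows below run from 250 bases before to 50 bases after each start, on the coding strand, with each CG in capitals. They are shown because the strongly marked start of one gene can be read beside its unmarked (SMAD4) or weakly marked (TGFBR1) gene start.
SMAD4 gene start, chr1:100521593-100521892, plus strand: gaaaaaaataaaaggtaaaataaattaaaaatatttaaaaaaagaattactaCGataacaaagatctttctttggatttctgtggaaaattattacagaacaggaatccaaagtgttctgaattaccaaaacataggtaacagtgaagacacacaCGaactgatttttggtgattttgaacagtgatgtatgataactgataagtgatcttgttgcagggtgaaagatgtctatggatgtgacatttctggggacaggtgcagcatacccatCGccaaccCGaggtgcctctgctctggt
SMAD4 later start, chr1:100573875-100574174, plus strand: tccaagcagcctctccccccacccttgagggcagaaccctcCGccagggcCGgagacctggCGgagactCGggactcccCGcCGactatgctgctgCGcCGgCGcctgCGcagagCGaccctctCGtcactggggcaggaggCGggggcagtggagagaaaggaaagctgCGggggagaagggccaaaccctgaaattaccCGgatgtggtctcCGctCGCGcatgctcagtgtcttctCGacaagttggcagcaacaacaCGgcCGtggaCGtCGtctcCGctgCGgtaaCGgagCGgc
TGFBR1 gene start, chr1:240842485-240842784, plus strand: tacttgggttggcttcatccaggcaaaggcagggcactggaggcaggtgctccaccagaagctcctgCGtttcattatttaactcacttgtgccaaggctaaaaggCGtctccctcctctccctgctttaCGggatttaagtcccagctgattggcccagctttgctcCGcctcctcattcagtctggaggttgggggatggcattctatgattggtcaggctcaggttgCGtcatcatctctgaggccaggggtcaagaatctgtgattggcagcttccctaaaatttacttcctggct
TGFBR1 later start, chr1:240859836-240860135, plus strand: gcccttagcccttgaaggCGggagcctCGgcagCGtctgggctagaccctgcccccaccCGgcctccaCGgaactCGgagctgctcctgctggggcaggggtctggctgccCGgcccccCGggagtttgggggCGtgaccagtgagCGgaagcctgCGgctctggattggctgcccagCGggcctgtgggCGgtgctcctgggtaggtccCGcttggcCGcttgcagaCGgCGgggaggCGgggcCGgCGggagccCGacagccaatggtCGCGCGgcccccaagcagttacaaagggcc

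The unmarked SMAD4 start held 4 CpG and the marked one 27, and the TGFBR1 starts held 5 and 24. Over 19484 coding gene starts with a full window the median was 16 CpG. It was 22 where the gene start bore H3K4me3 and 4 where it did not, so the weakly marked TGFBR1 start had few CpG for a marked one. The GC content of the SMAD4 windows was 35.7% and 66.7%, and that of the TGFBR1 windows 52.7% and 73.0%. The GC box (GGGCGG on either strand) was absent from both SMAD4 windows and from the TGFBR1 gene start, and the later TGFBR1 start held 1. It was present in 50.7% of all coding start windows.

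Of the 7 members with several separate starts, only SMAD4 lacked H3K4me3 at the gene start and had it at a later one, a pattern in 13.7% of the 4241 coding genes with such starts. SMAD4 and TGFBR1, 2 of 7, had a separate and higher H3K4me3 region at a later start, against 20.7% of the same genes. Later starts of TGFB2 (21.6 and 30.4 kb), TGFBR3 (27.5 kb) and SMAD2 (27.2 kb) bore neither histone mark in both replicates. The start of the RefSeq transcript NM_001256148.1 of SMAD2 was among these, at 23880 bp from the nearest H3K4me3 region. The later SMAD7 starts, from 1.61 kb, lay inside the same broad regions as its gene start.

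**Figure D1:**
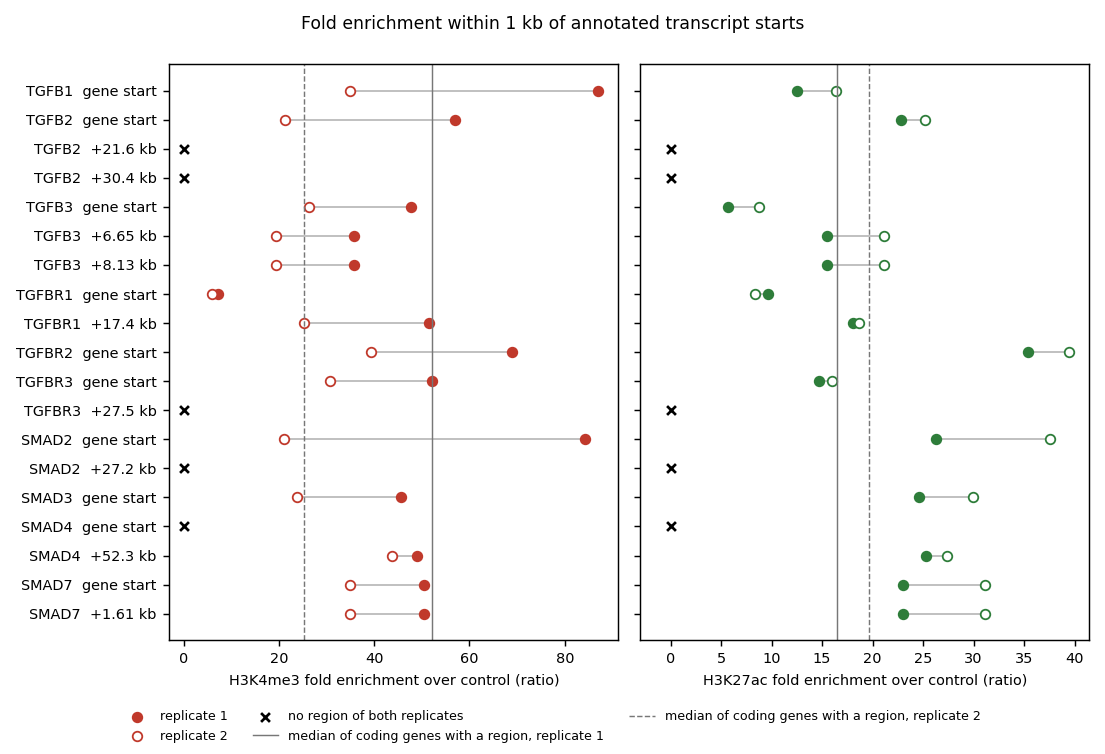
H3K4me3 (left) and H3K27ac (right) fold enrichment over control of regions that came within 1 kb of each annotated start of the 10 genes. Replicate 1 is filled and replicate 2 open, with crosses at 0 where no region of both replicates was found. The summit that gives a value can lie farther than 1 kb from the start. Grey lines are the medians of coding genes with a region at the gene start; SMAD4 has crosses at its gene start and high values at 52.3 kb, and both later TGFB3 starts share 1 region, as do both SMAD7 starts.

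Among the ligand genes, TGFB1 (chr6:49332169-49348642, minus strand), the most widely studied isoform, had the highest H3K4me3 of the 10 genes in replicate 1. Its H3K4me3 was 86.9 and 35.0 over 4.09 kb, at percentiles 98.9 and 85.6. Its H3K27ac was 12.5 and 16.4, at percentiles 32.7 and 38.8, below the median of coding genes in both replicates. The gene shares this start with LOC110261354, a protein-coding gene that begins 0.581 kb upstream on the same strand, so the marks of these starts cannot be told apart.

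TGFB2 (chr10:8306136-8435307, plus strand), the isoform that relies most on betaglycan, had H3K4me3 of 56.9 and 21.3 over 6.82 kb. Its H3K27ac was 22.8 and 25.2 over 8.38 kb, at percentiles 73.6 and 68.8. TGFB2 was thus above the median of coding genes for H3K27ac in both replicates, unlike the other ligands, while for H3K4me3 it was above it in replicate 1 and below it in replicate 2.

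TGFB3 (chr7:99133873-99162239, minus strand), an isoform with roles in palate development and wound repair, had H3K4me3 of 47.8 and 26.3 and H3K27ac of 5.73 and 8.71 at its gene start. The H3K4me3 region lay inside the gene, ended 174 bp short of the gene start with its summit 2992 bp from it, and covered an annotated start of IFT43, so that it cannot be assigned to TGFB3 alone. At its later starts (6.65 and 8.13 kb), which share 1 region, H3K4me3 was lower, at 35.7 and 19.3, and H3K27ac was higher, at 15.5 and 21.1. The later region covers another start of IFT43, a gene of intraflagellar transport that runs the other way from 6.35 kb, and the marks of the 2 genes there cannot be told apart either. The mean H3K27ac at the TGFB3 gene start, 7.22 ± 2.11 (SD, n = 2), and that at TGFBR1, 9.04 ± 0.907, were the lowest of the 9 genes, and TGFBR1 was the lower of the 2 in replicate 2.

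Among the receptors, TGFBR2 (chr13:16784370-16875828, plus strand), the ligand-binding type II receptor kinase, had the highest H3K27ac at the gene start of the 10 genes. Its H3K27ac was 35.4 and 39.5 (37.4 ± 2.94, SD, n = 2) in a region of 20.6 kb. Its H3K4me3 was 69.0 and 39.3 over 4.92 kb. The acetylated region ran well past the methylated one into the gene.

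TGFBR3 (chr4:125109939-125310788, plus strand) is the longest of the 10 genes at 201 kb. Its H3K4me3 was 52.2 and 30.8 over 3.63 kb and its H3K27ac 14.7 and 16.0 over 2.22 kb. CTCF lay at the same start at 11.6 and 17.1. The start is shared with a pseudogene, LOC100157600, which begins 0.530 kb upstream on the opposite strand.

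Among the SMADs, SMAD2 (chr1:97415360-97511388, minus strand), a receptor-activated SMAD, had H3K4me3 of 84.2 in replicate 1 but 21.0 in replicate 2. The former was among the highest and the latter among the lowest of the 9 marked gene starts, so its rank for H3K4me3 differed between the replicates. Its H3K27ac was 26.3 and 37.6. SMAD3 (chr1:164998457-165124455, plus strand), the other receptor-activated SMAD, had H3K4me3 of 45.7 and 23.9 and H3K27ac of 24.6 and 29.9. For H3K4me3, SMAD3 was below the median of coding genes in both replicates.

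SMAD7 (chr1:98512800-98543924, minus strand) had H3K4me3 of 50.5 and 34.9 and H3K27ac of 23.0 and 31.1. The regions were broad, at 18.4 kb for H3K4me3 and 36.0 kb for H3K27ac. Both widths were at percentile 99.8 of coding genes with a region at the gene start. The acetylated region covered nearly the whole gene, and 94.5% and 99.2% of the gene lay under H3K27ac peaks in replicates 1 and 2.

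By mean H3K27ac at the gene start the order was TGFBR2, SMAD2, SMAD3, SMAD7, TGFB2, TGFBR3, TGFB1, TGFBR1 and TGFB3. The last ranks hold for the gene starts only. At the later starts the mean was 18.4 at TGFBR1 and 18.3 at TGFB3, above the gene starts of TGFBR3 (15.4) and TGFB1 (14.5). SMAD4, not ranked, had 26.4 at its later start. Among neighbours in the order of gene starts, the values of the 2 replicates did not overlap for TGFB2 (22.8 and 25.2) above TGFBR3 (14.7 and 16.0). Nor did they for TGFB1 (12.5 and 16.4) above TGFBR1 (9.68 and 8.40). For the other neighbours they overlapped. Compared within each replicate, TGFBR2 was above SMAD2, SMAD2 above SMAD3, and SMAD7 above TGFB2 in both, the last by little in replicate 1. The order of SMAD3 and SMAD7, of TGFBR3 and TGFB1, and of TGFBR1 and TGFB3 changed between replicates. The genes from TGFBR2 to TGFB2, 5 of 9, were above the median of 11906 coding genes with a region (16.5 and 19.6) in both replicates, close to an even split. The H3K4me3 order was less stable, since TGFB1, TGFBR2 and TGFBR3 were above the median of 13489 genes (52.2 and 25.3) in both replicates, TGFBR1 and SMAD3 were below it in both, and the other 4 changed sides. TGFBR3 was close to that median in replicate 1.

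The regions at these gene starts were mostly wider than usual. The H3K4me3 region was wider than the median of coding genes, 3015 bp, at 8 of 9 genes, and the H3K27ac region was wider than the median of 2644 bp at 7 of 9. The exceptions were TGFBR1 for both marks and TGFBR3 for H3K27ac. At the later TGFBR1 start the regions were wider, at 5.62 kb for H3K4me3 and 3.68 kb for H3K27ac. The medians of the 9 genes were 4911 bp and 4035 bp. A union of the peaks of both replicates is at least as wide as either, for all genes alike.

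**Figure D2:**
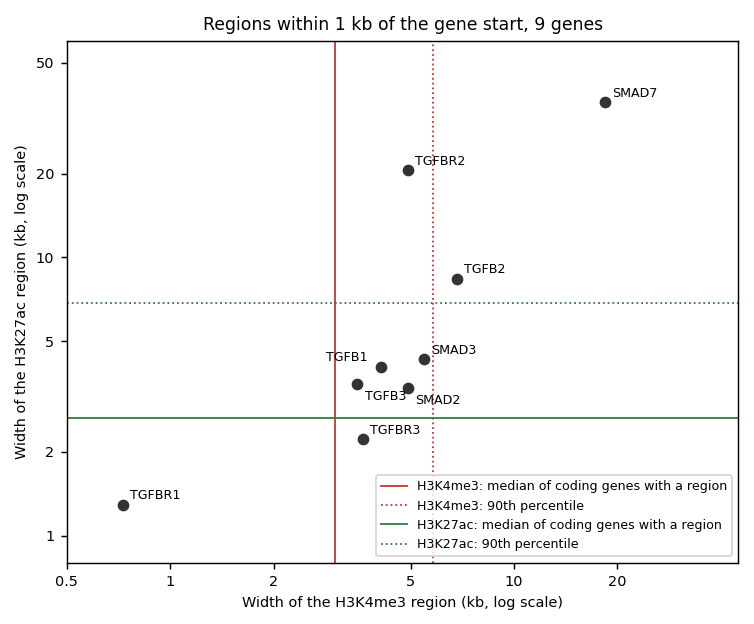
Width in kb of the H3K4me3 region (x axis, log scale) and the H3K27ac region (y axis, log scale) at the gene starts of 9 genes, 1 point per gene, with lines at the median and the 90th percentile of coding genes with such a region. SMAD7 lies at 18.4 and 36.0 kb, TGFBR2 at 4.92 and 20.6 kb, and TGFBR1 at 0.729 and 1.29 kb.

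SMAD7 is a target of the pathway, and SMAD complexes are known to bind the palindrome GTCTAGAC. The start window of SMAD7 held this palindrome 165 bases before the gene start, at chr1:98544082-98544089. It was found in 38 of 19484 coding start windows (0.195%), and among the 19 start windows of the 10 genes in this 1 only. The window, chr1:98543875-98544174 on the minus strand, is shown with the palindrome in capitals.
SMAD7 gene start: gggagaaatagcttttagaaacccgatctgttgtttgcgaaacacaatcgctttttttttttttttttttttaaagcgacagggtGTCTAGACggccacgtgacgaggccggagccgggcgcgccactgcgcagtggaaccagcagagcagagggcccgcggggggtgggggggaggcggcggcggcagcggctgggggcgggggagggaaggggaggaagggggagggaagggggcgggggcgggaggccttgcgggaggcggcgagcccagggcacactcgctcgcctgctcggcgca
The match is of letters only, and binding of SMAD proteins was not measured here. The window also held 28 CpG and 3 GC boxes, and lay inside the H3K4me3 and H3K27ac regions of 18.4 and 36.0 kb.

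Away from the starts, the 10 genes differed widely in acetylated regions. Within 100 kb of the gene start there were 23 H3K27ac regions at SMAD3, 20 at TGFB1 and TGFBR2, 13 at TGFB2, 10 at TGFBR1 and SMAD7, 8 at TGFB3, 6 at SMAD4, and 5 at TGFBR3 and SMAD2. The median was 10, against 7 for all coding genes. With peaks of a −log10 q-value of at least 5 the median of the 10 genes was 6.50, and with the list of replicate 1 alone it was 16.5. The median of all coding genes was not computed under these settings, so these values cannot be set against 7. SMAD3 was at percentile 98.6 and TGFB1 and TGFBR2 at 96.1, whereas SMAD4, SMAD2 and TGFBR3 were below the median. Single counts depended on the requirement for both replicates. TGFBR1 had 27 regions without replicate 1 and 17 without replicate 2, SMAD7 had 16 without replicate 2 and SMAD2 had 8 without replicate 1, so the order of the genes below SMAD3, TGFB1 and TGFBR2 is not firm. The order of TGFBR1 and TGFB2 turned, since TGFB2 had 16 without replicate 1.

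**Figure D3:**
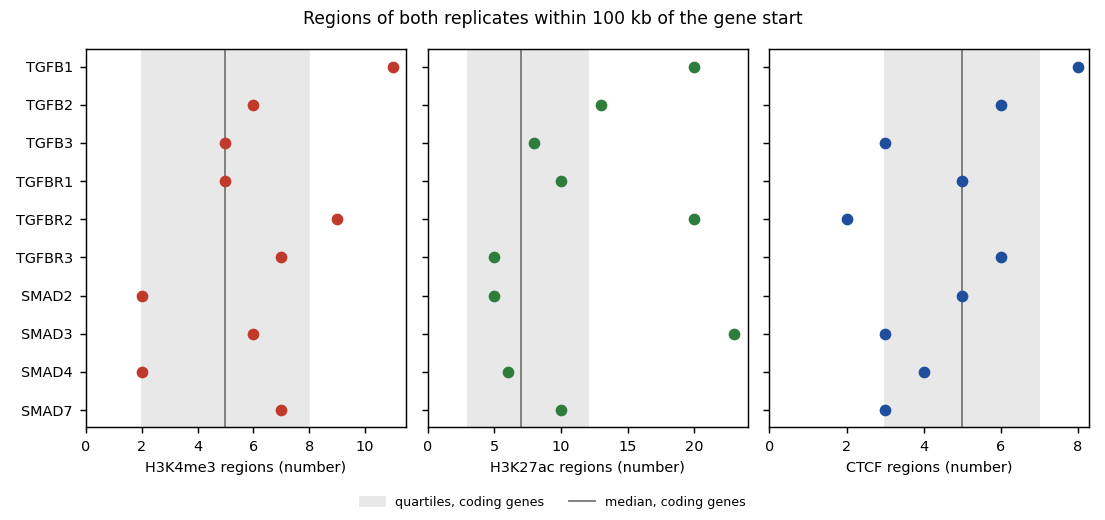
Number of H3K4me3, H3K27ac and CTCF regions of both replicates within 100 kb of the gene start of each of the 10 genes (points), with the median (line) and the quartiles (grey band) of 19487 coding genes. SMAD3, TGFB1 and TGFBR2 have 20 or more H3K27ac regions, and TGFBR2 has 2 CTCF regions (5 without replicate 1).

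The high counts at TGFB1 and TGFBR2 came from different surroundings. TGFB1 lies in a gene-dense stretch with 12 annotated neighbour starts within 100 kb, and none of its 9 H3K27ac regions more than 1 kb from a transcript start had TGFB1 as the nearest start. TGFBR2 has no neighbour start within 100 kb, and TGFBR2 was the nearest start of all 19 such regions. SMAD7, also without a neighbour, was the nearest start of all 9 of its regions. TGFBR1 and SMAD2 had no neighbour start within 100 kb either, but were the nearest start of only 5 of 8 and 2 of 4 such regions. Nearness does not say which gene a region acts on.

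**Figure D4:**
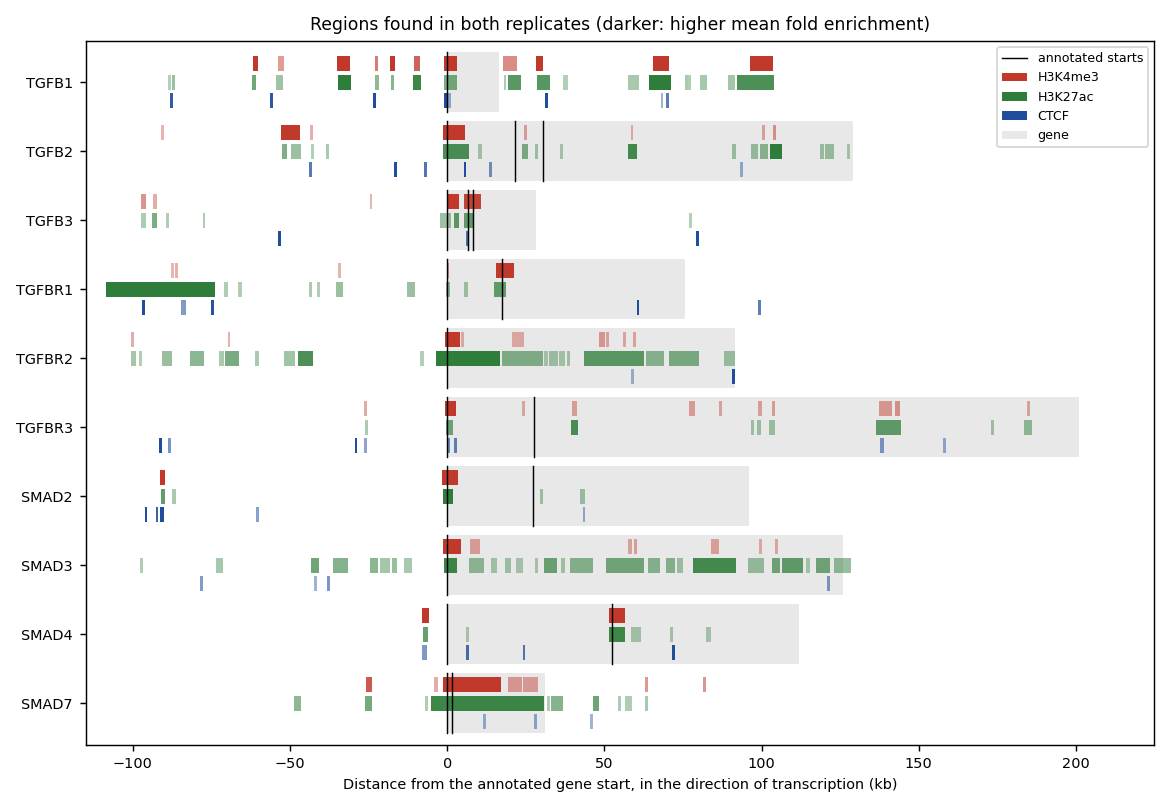
Regions of both replicates around the gene start of each gene (x axis, kb in the direction of transcription), with H3K4me3 in red, H3K27ac in green, CTCF in blue, darker colours for higher mean fold enrichment, the gene in grey and annotated starts as black lines; short regions are drawn 0.9 kb wide. SMAD7 and TGFBR2 carry H3K27ac over most of the gene, TGFBR2 has 2 CTCF regions (5 without replicate 1), and SMAD4 has its H3K4me3 at 52.3 kb.

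Acetylation inside the gene was extensive at 3 genes. H3K27ac peaks covered 94.5% and 99.2% of SMAD7, 77.3% and 74.4% of TGFBR2, and 58.6% and 65.3% of SMAD3 in replicates 1 and 2. The median of all coding genes was 5.75% and 6.13%. SMAD2, whose gene start was among the most acetylated, had 4.70% and 5.68% of its 96.0 kb covered, below that median, and the 2 receptor-activated SMADs thus differed in the extent of acetylation but not clearly in its height at the start.

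The strongest acetylated region outside the start was named for each gene. At TGFB2 it lay in an intron 104 kb into the gene (chr10:8408690-8412547), at 30.1 and 34.2, above the gene start in both replicates. A further intronic region of TGFB2 at 59.0 kb had 26.2 and 24.7. At TGFBR3 it lay in an intron at 40.5 kb (chr4:125149435-125151430), at 20.0 and 27.7, also above the gene start, and another at 140 kb had 18.3 and 20.0. Both of the named intronic regions overlapped an H3K4me3 region and no CTCF region.

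At SMAD3 the strongest such region was intronic at 85.1 kb (chr1:165076754-165090290), 13.5 kb wide, at 24.1 and 26.4, close to the values at its start. At TGFBR2 it lay 45.1 kb upstream (chr13:16736818-16741749), at 20.1 and 27.2, and an intronic region of 18.9 kb at 53.1 kb had 25.5 and 15.3. Both genes therefore had strong acetylation far from the start and, at TGFBR2, on both sides of it.

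At TGFBR1 the strongest region lay 91.2 kb upstream (chr1:240734235-240768898) and was 34.7 kb wide, at 31.3 and 31.8. Its nearest annotated start was that of COL15A1, a basement membrane collagen gene, 16107 bp from it, and it overlapped CTCF and H3K4me3 regions. At SMAD2 it lay 90.5 kb upstream (chr1:97601281-97602567), at 21.1 and 17.6, and overlapped a CTCF region and an H3K4me3 region. At SMAD7 it lay 47.3 kb downstream of the gene start and past the gene end (chr1:98495744-98497566), at 15.9 and 17.9.

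For the other genes the strongest region was at another annotated start. At TGFB1 it was 32.7 kb upstream at the shared start of BCKDHA and EXOSC5 (chr6:49379356-49383337), at 28.5 and 38.9, above the values at TGFB1 in both replicates. At TGFB3 it lay 3.06 kb into the gene, over an annotated start of IFT43 (chr7:99158411-99159953), at 16.8 and 23.5. At SMAD4 it was the later start described above.

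Over the 10 genes there were 133 H3K27ac regions in the gene or within 100 kb, of which 107 lay more than 1 kb from any annotated transcript start. Of these 107, 31 overlapped an H3K4me3 region (29.0%, against 25.3% of all such regions). Of 45 H3K4me3 regions away from starts, 39 overlapped H3K27ac (86.7% against 69.6%). Of 39 CTCF regions away from starts, 19 overlapped H3K27ac (48.7% against 21.5%). These 3 shares were higher at the 10 genes, whereas the H3K4me3 regions that overlapped CTCF (15.6% against 19.4%) and the H3K27ac regions that did so (12.1% against 12.4%) were not. The regions compared with come from the whole genome, whereas those of the 10 genes all lie in or within 100 kb of a gene. Of the 19 CTCF regions with H3K27ac, 3 lay in the single 34.7 kb acetylated region upstream of TGFBR1. None of these shares was tested.

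The letters of the AP-1 motif, TGANTCA on either strand, were searched in the 300 bases around the summit of each region away from starts. They were found at 18 of 107 regions of the 10 genes (16.8%) and at 13.2% of all 47847 such regions. The TEAD motif GGAATG was found at 16.8% and 16.3%, and the SMAD palindrome at 1 of 107 (0.935%) and 0.211%. The strongest intronic region of TGFB2 held 2 AP-1 matches. The 101 bases around its summit, chr10:8409894-8409994 on the plus strand, are shown with the match among them in capitals.
TGFB2 intronic region at 104 kb: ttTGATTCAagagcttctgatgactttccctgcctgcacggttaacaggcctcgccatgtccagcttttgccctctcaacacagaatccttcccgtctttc
The strongest region of TGFBR3, at 40.5 kb, held 1 AP-1 match.

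CTCF regions were about as many as at other genes. Over the 10 genes there were 48 in the gene or within 100 kb, and the median within 100 kb was 4.50, against 5 for all coding genes. TGFB1 had 8, TGFB2 and TGFBR3 had 6, and TGFBR2 had 2, both inside the gene at 59.1 and 91.1 kb. The former TGFBR2 region was weak, at 4.67 and 4.14, and the latter, in an exon close to the gene end, was at 36.9 and 52.8. Without replicate 1, TGFBR2 had 5 CTCF regions and SMAD7 had 6 in place of 3, and with a −log10 q-value of at least 5 TGFBR2 had 1.

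A CTCF motif of 19 bp, learned from strong peaks of the same lists, was found at 36 of the 48 regions (75.0%), against 87.5% of all CTCF regions and 11.2% of windows 1 kb from the summits. The 36 regions with a motif had a median mean fold enrichment of 25.5, and the 12 without had 8.32. For all CTCF regions these medians were 24.3 and 10. Regions without a motif were thus weaker, at the 10 genes as in the genome. The motif was learned from the peaks of highest fold enrichment, so this link is partly built in and is not an independent result. The motif read in the direction of transcription in 20 of the 36 and against it in 16.

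The following sites are shown because each is a strong or start-proximal site of a named gene, with the 19 bases of the motif in capitals on the strand of the motif.
TGFB1, 0.663 kb upstream, chr6:49349285-49349333, minus strand: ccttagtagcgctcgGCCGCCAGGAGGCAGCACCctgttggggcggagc
TGFB1, 0.808 kb downstream, chr6:49347776-49347824, minus strand: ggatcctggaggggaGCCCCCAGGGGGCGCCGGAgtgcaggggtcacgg
TGFB2, 16.4 kb upstream, chr10:8289701-8289749, plus strand: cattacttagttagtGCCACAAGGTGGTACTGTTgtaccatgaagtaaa
TGFBR1, 60.7 kb downstream, chr1:240903413-240903461, minus strand: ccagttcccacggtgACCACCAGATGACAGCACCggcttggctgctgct
SMAD2, 90.8 kb upstream, chr1:97602441-97602489, minus strand: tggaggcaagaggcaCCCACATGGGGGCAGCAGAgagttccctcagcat
SMAD4, 71.9 kb downstream, chr1:100593697-100593745, minus strand: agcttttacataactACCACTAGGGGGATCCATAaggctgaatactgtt

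At TGFB1 the upstream site had 30.2 and 41.4 and the intronic one 6.08 and 7.51, so the sites that flank the start differed in height although both held a motif in the direction of transcription. At TGFBR3 the region at the start, 11.6 and 17.1, held no motif match. The CTCF region of highest mean fold enrichment at the 10 genes was the intronic one of TGFBR1, at 67.5 and 48.6, with its motif against transcription. The SMAD4 site at 46.0 and 43.4 lay in an intron past the later start, also against transcription. The later TGFB3 start at 6.65 kb bore CTCF at 19.6 and 20.8.

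The nearest CTCF region upstream of the start, with or without a motif, lay at 6.94 kb at TGFB2 (19.4 and 21.1), 7.15 kb at SMAD4 (8.77 and 14.5), 26.1 kb at TGFBR3 (8.61 and 9.29) and 37.7 kb at SMAD3 (11.3 and 13.0). It lay farther off at TGFB3 (53.3 kb, 29.4 and 37.8), SMAD2 (60.3 kb, 9.89 and 9.76) and TGFBR1 (74.8 kb, 26.0 and 31.0). TGFBR2 and SMAD7 had none within 100 kb upstream. The nearest downstream lay at 5.67 kb at TGFB2 (31.0 and 30.3), 6.51 kb at SMAD4 (20.1 and 24.9), 12.0 kb at SMAD7 (6.45 and 5.60), 43.5 kb at SMAD2 (5.24 and 8.39) and 121 kb at SMAD3 (9.73 and 12.4). The spacing of CTCF around the start thus ranged from within 1 kb at TGFB1 to no upstream region in 100 kb at TGFBR2 and SMAD7.

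The nearest CTCF regions with a motif outside each gene were also taken as a pair, since loops are known to form mostly between sites that point toward each other. The pair was convergent at TGFB2, SMAD2 and SMAD4, over 165, 239 and 274 kb. It was divergent at TGFBR1, over 174 kb, and on the same strand at the other 6 genes. The nearest site was taken however weak it was. At TGFBR3 the upstream site had 8.61 and 9.29 and pointed away from the gene. A stronger site at 29.0 kb upstream, at 43.6 and 44.5, pointed toward it and would make the pair convergent. At SMAD3 both sites were weak, at 5.06 and 5.88 upstream and 6.25 and 7.35 downstream. The TGFB2 and SMAD2 pairs held no other coding start, and the SMAD4 pair held 4. The pairs are a description of motif strands, and contacts between them were not measured in these lists. Such pairs were not computed for all coding genes, so whether convergent pairs were more common at these genes was not tested.

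**Figure D5:**
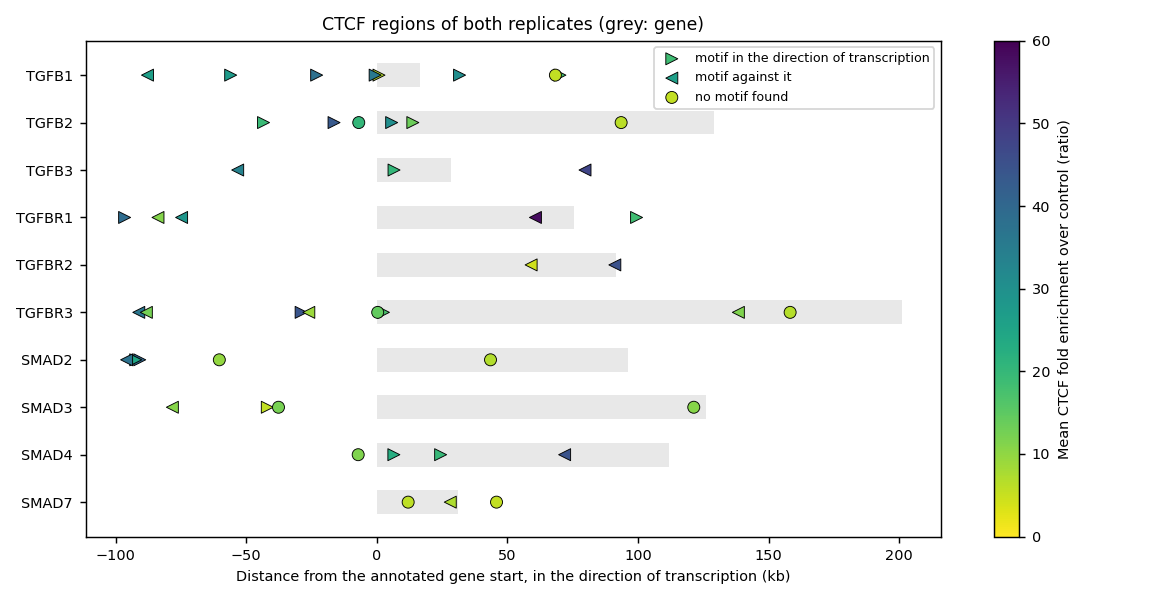
CTCF regions of both replicates by distance from the gene start (x axis, kb in the direction of transcription) for the 10 genes, as triangles that point with or against transcription by their motif, or circles without a motif, coloured by mean fold enrichment, with the gene in grey. The darkest symbol is the intronic TGFBR1 site at 60.7 kb, and the circles are mostly pale.

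SMAD2, SMAD7 and SMAD4 lie in this order on chromosome 1. The starts of SMAD2 and SMAD7 are 1033 kb apart with 2 other coding starts and 29 CTCF regions between them, and those of SMAD7 and SMAD4 are 1978 kb apart with 13 coding starts and 33 CTCF regions. None of the 100 kb windows of these 3 genes overlapped.

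Other genes of the pathway were examined as 4 lists with 42 genes in all. H3K4me3 was at the gene start of 40 of 42, H3K27ac at 42 of 42 and CTCF at 13 of 42, beside 69.2%, 61.1% and 18.6% of all coding genes. Those without H3K4me3 there were FURIN, a protease that cleaves the TGF-beta precursor, and CDKN2B, a cell cycle inhibitor induced by the pathway. Both had H3K4me3 at a later start, FURIN at 3.60 kb (74.0 and 29.5) and CDKN2B at 95.1 kb (60.6 and 28.9), as SMAD4 had.

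For latency and activation, 10 of 11 genes bore both marks. The highest H3K27ac was at ITGB8, an integrin subunit that activates latent TGF-beta (31.2 and 32.5), and at FURIN (28.8 and 34.8). All 5 coreceptor and SMAD adaptor genes bore both marks, led by STRAP, a receptor-associated protein (38.2 and 40.4), and ZFYVE9, also called SARA, which brings SMAD2 and SMAD3 to the receptor (21.8 and 24.9). DAB2 repeated the pattern of TGFBR1, with H3K4me3 of 4.25 and 6.68 at the gene start and 39.3 and 31.6 at 131 kb; this gene was picked after its values were seen.

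All 12 genes of repressors and turnover bore both marks, with the highest H3K27ac at the corepressors TGIF1 (38.9 and 38.9) and SKI (30.3 and 39.7). Their median H3K27ac of 26.2 was the highest of the 4 lists, and SMAD7, the inhibitory member, had 23.0 and 31.1. Of 14 target genes 13 bore both marks, with the highest H3K27ac at CDKN1A, a cell cycle inhibitor (43.4 and 35.9), and COL1A2, a type I collagen chain (32.0 and 29.1). COL1A1 and COL1A2 also stand among the fibroblast markers, so the lists are not separate there. FN1, the fibronectin gene, picked after its values were seen, had H3K4me3 of only 3.13 and 5.38 beside H3K27ac of 30.5 and 28.1. The FN1 regions were 0.875 kb wide for H3K4me3 and 23.1 kb for H3K27ac, so these values need not come from the same place.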

How the data were processed

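Per the labels and the study's methods, the authors mapped ChIP-seq reads with Bowtie2 (build Sscrofa11.1 in the submitters' processing notes), filtered them for unique fragments, took out duplicates by means of Picard, and ran MACS2 on each library for narrow peaks. The methods state a MACS2 q-value of 0.01, but the lists hold peaks above it, and 4 of 133 H3K27ac regions of the members, down to a −log10 q-value of 1.79, held such a peak in a replicate. The study also merged replicates by IDR, an irreproducible discovery rate, and that merged set was not used here. Versions are not given in the sources used here. The deposited lists hold per peak a score, a fold enrichment (a ratio over control at the summit), −log10 p- and q-values, and positions and summits. The score and p-values were not used, and no read counts are given, so that depth per peak is unknown.

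Peaks on chromosomes 1 to 18 and X were used, which left out between 435 and 633 peaks per library. Regions are unions of peaks of both replicates that overlap by at least 1 bp. A gene start is the start of the RefSeq gene feature, and starts of transcripts within 1 kb of each other were joined. Percentiles of fold enrichment and width are among protein-coding genes with a region, and those of numbers within 100 kb are among all protein-coding genes. A CTCF motif of 19 bp was learned from the 600 CTCF peaks of highest fold enrichment in replicate 1 on odd-numbered autosomes. Learning started from the fixed core AGNNGGC and kept the better-scoring matches. Those autosomes include the chromosomes of TGFBR1, TGFBR2, TGFB3 and the SMAD genes. The motif was scored within 100 bases of summits at p 0.0001 per position. CpG and motifs were counted in windows of 250 bases before to 50 after a start, and in 300 bases around H3K27ac summits. The region, overlap and motif steps were tested on simulated data. Python 3.11.15, numpy 2.4.6 and samtools 1.23.1 were used.

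The members and lists were chosen with earlier results of these data known, so no test was made over them. All 10 members were named, with their regions at the start, their highest H3K27ac region elsewhere and the nearest CTCF regions. Of other pathway genes, those without H3K4me3 at the gene start and the 2 of highest H3K27ac per list were named. Samples were grouped by mark from their labels. Each replicate's value is printed, or the mean ± SD (n = 2). The alternatives tried were peaks with −log10 q-values from 5 upward, 5 kb from the start, any transcript start, 50 kb windows, an overlap of 50% of both peaks, a motif p of 0.00001, and each replicate alone. Input libraries, Hi-C and expression data were not analysed here.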

Additional observations from a re-analysis of the deposited data

How the results depend on the processing

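The number of members with H3K4me3, H3K27ac, both or CTCF at the start changed little under the alternatives tried. It stayed between 9 and 10 for the histone marks and between 2 and 3 for CTCF. All 10 members bore both histone marks when any transcript start was allowed, where H3K4me3 alone was found at 72.3% of all coding genes. For H3K27ac, both marks and CTCF the share of all coding genes at any transcript start was not computed, so those counts have no value beside them. The median number of H3K27ac regions within 100 kb was 10, fell to 6.50 with a −log10 q-value of at least 5, and was between 15 and 16.5 with the list of a single replicate, where regions need not be found in both. The median number of CTCF regions, 4.50, was 2.50 within 50 kb and between 5 and 5.50 with a single replicate. For these numbers of regions the medians of all coding genes were not computed under the alternatives. The share of CTCF regions with a motif, 75.0%, was 58.3% at a motif p of 0.00001, where it was 67.4% for all CTCF regions, and between 74.1% and 76.5% with a single replicate. For single members, 34 of 150 counts moved by more than 1.5 times, 21 of them with the smaller window. No paired analysis was possible because no result comes from a test and each mark has 1 condition. The H3K4me3 values of TGFB2, TGFB3, SMAD2 and SMAD7 lay on different sides of the median of coding genes in the 2 replicates.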
